A study of Homo sapiens with 12 samples.

Results

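Interferon-stimulated genes are those that cells transcribe more when an interferon binds its receptor. A list of 43 of them, matched by gene symbol, was followed among the 58302 genes that each deposited table holds, and all 43 were present in both tables. RNA was sequenced from NCI-H1299 and NCI-H1703, established human lung cancer lines, after 24 h with SAHA or with its solvent DMSO. SAHA (vorinostat) inhibits zinc-dependent histone deacetylases, the enzymes that remove acetyl groups from histones and other proteins. Each line was sequenced under both treatments in 3 libraries apiece, which makes 4 groups and 12 libraries. The labels name SAHA doses of 0, 2.5, 10 and 40 µM and 0.1% DMSO, but not the dose behind the sequenced libraries. No library was given an interferon, and each line is a single cultured line, so a difference between lines is between these 2 lines. Whether the 3 libraries of a group are separate cultures is not in the labels, so the spread that the p-values rest on may be technical.

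In the textbook pathway, type I and type III interferons activate the kinases JAK1 and TYK2, which phosphorylate transcription factors of the STAT family, among them STAT2. With IRF9 these form a complex, ISGF3, that binds the interferon-stimulated response element (ISRE) in promoters. Interferon gamma acts through another element, the gamma-activated site (GAS). The products sense viral RNA, degrade it, block its translation, hold viruses at membranes or restrain the signal itself. Many tumour lines transcribe part of the programme without added interferon.

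Total counts ran from 14.4M to 19.4M per library. The share of counts from mitochondrially encoded genes was 1.96% to 2.22% in H1299 with DMSO and 4% to 4.23% with SAHA. The shares in H1703 were 5.44% to 6.27% and 8.77% to 10.9%, so it moved with SAHA and with the line, and its part in the results below was not tested. The cells are labelled epithelial. Of 6 epithelial markers, 3 reached a mean of 1 CPM (a count scaled to a common library total) in H1299 and 6 in H1703, and CDH1 had no count in H1299 with DMSO. Their summed level was 590 to 613 CPM in H1299 with DMSO and 1360 to 1580 with SAHA, against 3980 to 4440 and 2950 to 3410 in H1703. Lymphoid markers (7 genes) summed to at most 1.05 CPM in any library, with CD3D, CD3E, CD2, MS4A1 and NKG7 at 0 in both DMSO groups. With SAHA only MS4A1 was at 0 in each line, and CD3D reached 16 counts over the H1299 group and CD2 13 over the H1703 group. Plasmacytoid dendritic cell markers (3 genes, among them CLEC4C and LILRA4 at 0 in both DMSO groups) reached at most 0.121 CPM in the H1299 DMSO libraries, 0.889 in those with SAHA, 2.55 in the H1703 DMSO libraries and 11 in those with SAHA. LILRA4 had 7 counts over the H1299 group with SAHA and 22 over that of H1703. Fibroblast markers (5 genes) summed to 1.54 to 2.55 CPM (DMSO) and 37.7 to 50.7 CPM (SAHA) in H1299, and to 63.0 to 72.3 and 112 to 126 CPM in H1703. Myeloid markers (6 genes, with FCER1G at 0 in both H1703 groups) summed to 20.9 to 42.0 CPM (DMSO) and 16.6 to 19.6 CPM (SAHA) in H1299, and to 27.3 to 47.2 and 75.0 to 83.5 CPM in H1703. Endothelial markers (3 genes) were higher with SAHA in both lines. They summed to 0.679 to 0.768 CPM (DMSO) and 4.6 to 5.97 CPM (SAHA) in H1299, and to 0.275 to 0.511 and 3.26 to 4.27 CPM in H1703. The part of these marker changes in the results was not tested.

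Most interferon-stimulated genes that passed the test fell with SAHA in both lines, while a small group rose steeply. In H1299, 34 of the 43 had enough counts to be tested; 17 fell and 8 rose at an adjusted p under 0.05. Over all 17277 genes tested there, 63.8% were called (30.4% fell and 33.3% rose), against 50% and 23.5% of the tested members. The median log2 fold change of the tested members was -0.39, beside 0.02 over all genes. In H1703, 41 were tested; 23 fell and 9 rose. Over all 17273 genes 67.4% were called (32.6% fell and 34.7% rose), against 56.1% and 22.0% of the tested members, and the median was -0.86 beside 0.02. Changes of at least 2-fold that passed the test were falls in 10 and rises in 5 members in H1299 (11.1% and 19.3% of all genes), and falls in 19 and rises in 4 in H1703 (14.9% and 19.5%). A filter on low counts decides which members are tested, so these shares are not shares of all 43. Some members passed it only through the group where they were high, among them OAS1, BST2 and DHX58 in H1299 with SAHA. In H1703 TRIM22 and OAS2 passed through the DMSO group, and DHX58 through the SAHA group. Their calls thus follow in part from the filter, and they are included in the counts and medians of this paragraph. RNA per cell and cell number cannot be told apart in such bulk libraries.

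The summed level of all 43 genes in the DMSO libraries of H1299 was 678 ± 15.7 CPM (mean ± SD, n = 3), and 550 ± 18.6 CPM with SAHA. The H1703 sums were 1241 ± 41.2 and 1008 ± 63.8 CPM. On a length-adjusted scale (FPKM, fragments per kilobase scaled to the library total) the drop was smaller. The sums were 159 ± 6.6 FPKM with DMSO and 151 ± 5.6 with SAHA in H1299, and 199 ± 4.4 and 193 ± 24.2 in H1703. On that scale the libraries of the treatments overlapped in both lines, so a fall of the summed level depends on the scale. Of the 34 members tested in both lines, 14 fell in both (41.2%) and 6 rose in both (17.6%). Of all 15654 genes tested in both lines, 21.9% fell in both and 23% rose in both. The members that rose in both were BST2, OASL, IFI6, DHX58, STAT2 and IRF1. OAS1 alone rose in H1299 and fell in H1703. Another 4 tested members, HERC6, ISG20, IFI27 and IFI44, passed the test in neither line, and RSAD2 and XAF1 were counted too low to test in either.

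**Figure D1:**
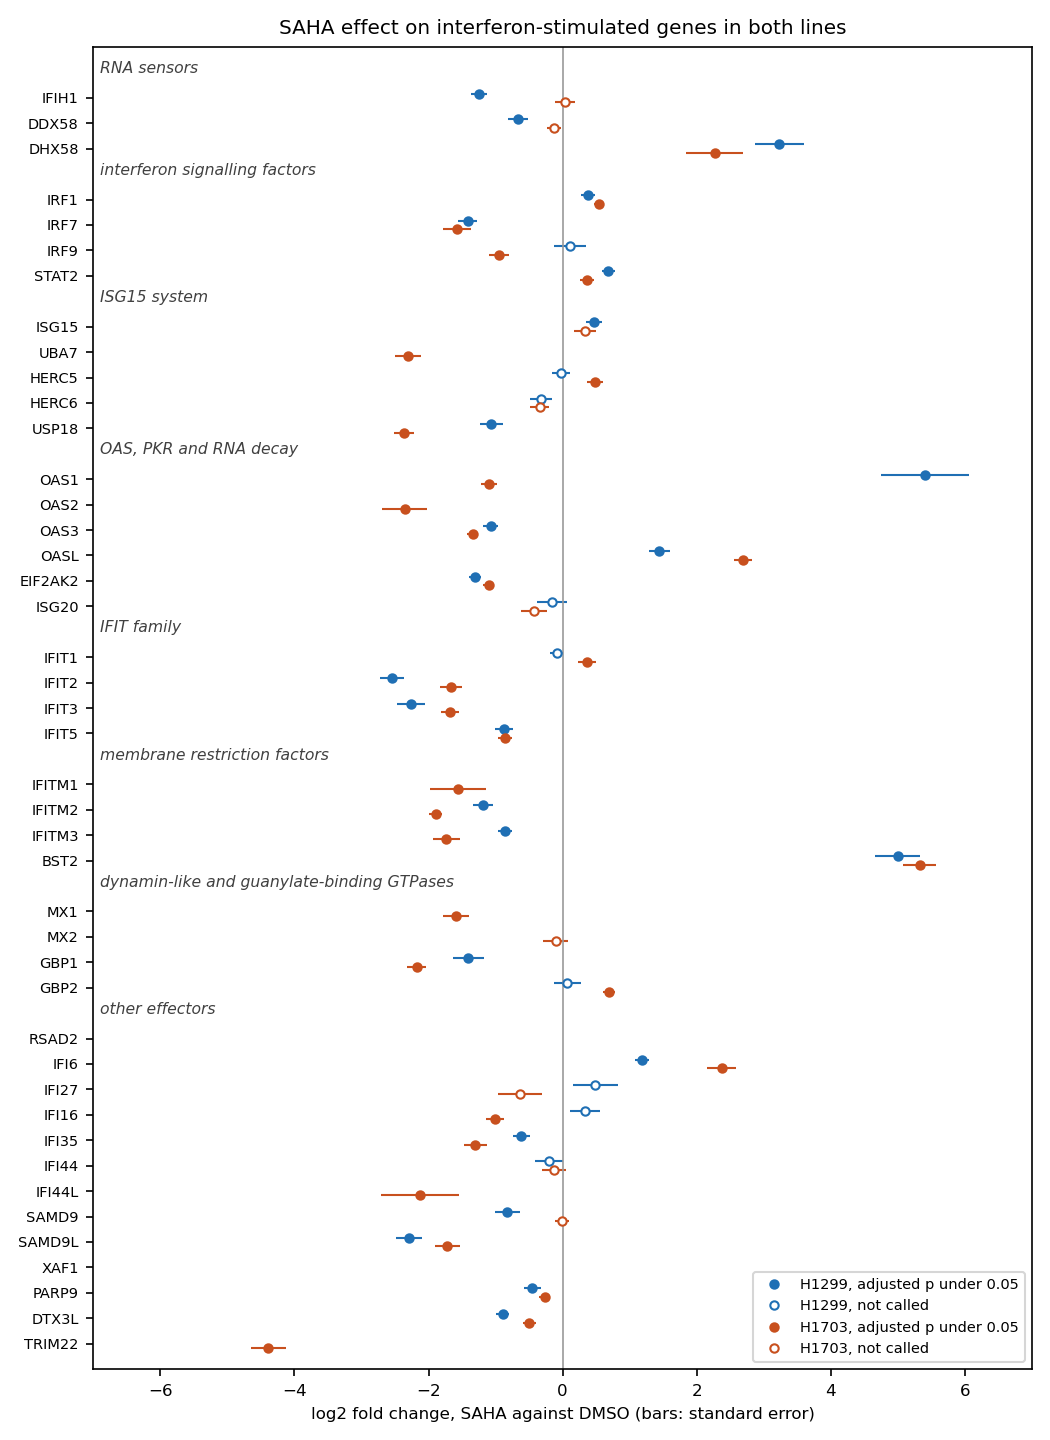
Log2 fold change of SAHA against DMSO for each tested interferon-stimulated gene, by role, in H1299 (blue) and H1703 (orange). Bars are standard errors and filled points passed an adjusted p of 0.05; BST2 lies near 5 in both lines, and OAS1 is the member with filled points on opposite sides of 0.

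Promoter sequence is shown for the strongest responders, to set the interferon elements beside genes that moved in opposite directions. Among the 3 largest rises and the 3 largest falls of each line, 5 genes had an entry in the RefSeq promoter table (GRCh38.p14), and 2 IFITM genes, which are near copies of each other, were added. The windows are the 250 bases before the RefSeq start, read 5′ to 3′ on the gene's strand, and capitals mark matches to the ISRE core, GAAA then any 2 bases then GAAA, on either strand. BST2 (chr19:17405631-17405880, minus strand), OAS1 (chr12:112906712-112906961, plus) and IFI6 (chr1:27672193-27672442, minus) were among the risers, and IFIT3 (chr10:89327747-89327996, plus) and SAMD9L (chr7:93148386-93148635, minus) among the fallers. IFITM1 lies at chr11:313790-314039 (plus) and IFITM3 at chr11:320861-321110 (minus).
BST2: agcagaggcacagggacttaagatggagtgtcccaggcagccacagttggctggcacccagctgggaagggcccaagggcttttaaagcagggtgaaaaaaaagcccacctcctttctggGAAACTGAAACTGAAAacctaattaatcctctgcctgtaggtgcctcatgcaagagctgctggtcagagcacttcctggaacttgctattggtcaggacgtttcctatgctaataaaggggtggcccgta
OAS1: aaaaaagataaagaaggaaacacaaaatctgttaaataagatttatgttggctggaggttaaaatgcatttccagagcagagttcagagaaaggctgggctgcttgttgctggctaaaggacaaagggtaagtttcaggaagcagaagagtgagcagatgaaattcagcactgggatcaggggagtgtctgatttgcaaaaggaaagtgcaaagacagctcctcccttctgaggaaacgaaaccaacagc
IFI6: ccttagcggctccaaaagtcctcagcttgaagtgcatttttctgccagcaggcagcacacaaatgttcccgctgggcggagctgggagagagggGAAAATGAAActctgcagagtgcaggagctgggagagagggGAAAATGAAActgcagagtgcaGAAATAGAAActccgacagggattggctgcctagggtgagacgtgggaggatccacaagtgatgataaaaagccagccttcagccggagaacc
IFIT3: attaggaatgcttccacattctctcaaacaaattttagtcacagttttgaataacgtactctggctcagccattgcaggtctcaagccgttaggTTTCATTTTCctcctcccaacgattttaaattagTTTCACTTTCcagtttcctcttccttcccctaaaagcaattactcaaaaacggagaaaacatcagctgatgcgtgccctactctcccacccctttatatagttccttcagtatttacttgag
SAMD9L: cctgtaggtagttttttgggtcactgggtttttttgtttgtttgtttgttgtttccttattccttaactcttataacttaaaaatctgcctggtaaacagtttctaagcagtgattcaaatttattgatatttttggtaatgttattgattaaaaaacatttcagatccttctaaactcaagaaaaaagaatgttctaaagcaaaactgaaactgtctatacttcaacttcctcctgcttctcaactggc
IFITM1: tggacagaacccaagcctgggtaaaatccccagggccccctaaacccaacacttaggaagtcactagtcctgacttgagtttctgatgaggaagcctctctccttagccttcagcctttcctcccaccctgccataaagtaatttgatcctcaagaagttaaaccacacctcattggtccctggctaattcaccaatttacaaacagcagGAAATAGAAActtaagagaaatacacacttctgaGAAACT
IFITM3: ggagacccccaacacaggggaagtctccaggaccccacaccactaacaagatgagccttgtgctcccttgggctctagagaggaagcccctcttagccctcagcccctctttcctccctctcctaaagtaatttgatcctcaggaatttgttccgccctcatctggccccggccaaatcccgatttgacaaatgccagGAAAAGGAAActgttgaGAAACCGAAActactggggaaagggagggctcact
BST2 and IFIT3 each hold 2 matches and IFI6 holds 3, so the letters are found in genes that rose and in genes that fell. The 2 matches of BST2 overlap, and the second match of IFITM1 runs over the start site.

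RefSeq promoters were found for 32 of the 43 members; DDX58 was matched under its newer symbol RIGI. Searched from 250 bases before to 50 after the start on both strands, 20 of the 32 (62.5%) held the ISRE core, against 3.57% of 35116 promoters of the same length. The GAS letters TTCNNNGAA were in 7 of 32 (21.9%), against 7.66% of all promoters, and some GAS matches overlap an ISRE match, as in BST2. Of the 20 members with the ISRE letters, 17 were tested in H1299, where 9 fell and 3 rose, and 20 in H1703, where 10 fell and 4 rose. Of the 12 members without them, 10 were tested in each line; 4 fell and 3 rose in H1299, and 6 fell and 2 rose in H1703. A match is a description of letters, and a missing match says only that these letters are not in the window.

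**Figure D2:**
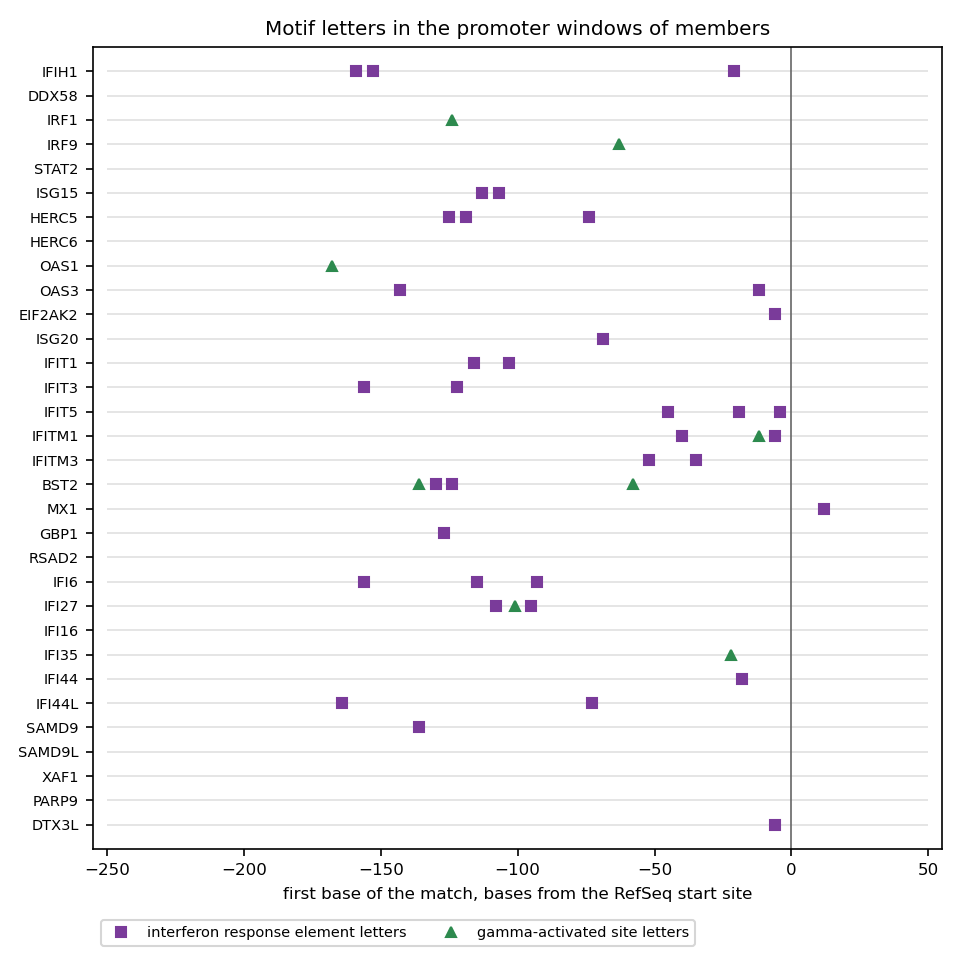
First base of each match to the ISRE letters (squares) and the GAS letters (triangles) in the promoter windows of the 32 matched members, in bases from the RefSeq start site. The ISRE letters occur in 20 of the 32 windows, and all but that of MX1 begin before the start site.

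Among the RNA sensors, which start the interferon response in infected cells, the 3 members behaved differently. Here and below, ± beside a CPM value is the SD over 3 libraries, ± beside a log2 fold change is its SE, and gene spans are on GRCh38. IFIH1 encodes MDA5, the sensor of long double-stranded RNA. Its level was 24.7, 26.6 and 26.6 CPM in H1299 with DMSO and 12.4, 10.4 and 11.4 CPM with SAHA. The H1703 values were 6.32, 7.64 and 7.77 CPM with DMSO and 7.13, 7.26 and 7.56 CPM with SAHA. The H1299 groups were apart and the H1703 groups overlapped, with log2 fold changes of -1.25 ± 0.11 (SE, adjusted p = 1.59e-05) and 0.03 ± 0.15 (adjusted p = 0.859). DDX58, which encodes RIG-I, the sensor of 5′ triphosphate RNA, fell in H1299 from 24.2 ± 2.4 to 15.9 ± 2.7 CPM (log2 fold change -0.66 ± 0.15). DDX58 in H1703 was at 37.7 ± 2.9 and 34.0 ± 3.2 CPM and did not pass the test (adjusted p = 0.298). DHX58, which encodes LGP2, a helicase relative without signalling domains, rose in both lines from low counts. It was at 0.242, 0.296 and 0.170 CPM in H1299 with DMSO and 2.99, 2.03 and 2.05 CPM with SAHA, a log2 fold change of 3.23 ± 0.36. In H1703 it went from 0.511, 0.525 and 0.206 CPM to 2.26, 2.56 and 1.25 CPM, a log2 fold change of 2.27 ± 0.43, with no overlap of the groups in either line.

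The 4 transcription factors of the list split by direction. STAT2, the ISGF3 subunit specific to type I and III signals, rose in H1299 from 32.2, 31.7 and 30.7 CPM to 49.9, 57.4 and 50.5 CPM (log2 fold change 0.68 ± 0.10). In H1703 it rose from 37.8, 41.1 and 44.4 CPM to 48.8, 57.5 and 50.2 CPM (0.36 ± 0.10, adjusted p = 0.0101), a call lost without DMSO library 1 (0.29, adjusted p = 0.0540). IRF1, an activator that interferon gamma induces, rose from 23.5, 25.7 and 23.2 CPM to 31.4, 32.4 and 34.0 CPM in H1299 and from 92.9, 90.8 and 86.2 CPM to 128, 139 and 122 CPM in H1703. These are log2 fold changes of 0.38 ± 0.10 and 0.54 ± 0.08. All SAHA libraries lay above all DMSO libraries for STAT2 and IRF1 in both lines. IRF7, the factor that drives later interferon alpha genes, fell from 8.76, 9.63 and 8.72 CPM to 3.52, 3.49 and 3.51 CPM in H1299 (-1.42 ± 0.15). In H1703 it fell from 11.6, 14.2 and 9.70 CPM to 4.26, 4.53 and 2.96 CPM (-1.57 ± 0.21), again with the groups apart. IRF9, the DNA-binding subunit of ISGF3, was at 3.02 ± 0.75 and 3.39 ± 0.56 CPM in H1299 and did not pass the test, but fell in H1703 from 13.1 ± 1.5 to 6.72 ± 0.83 CPM (-0.95 ± 0.15). IRF9 lies within AL136295.5, a gene with more counts than its own (2199 against 1267 over all libraries), which fell by 0.51 and 0.62 on the log2 scale. Reads of the pair may not be separable, so the IRF9 values are uncertain.

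The ISG15 system attaches the ubiquitin-like protein ISG15 to other proteins. ISG15 itself was at 57.0, 58.8 and 48.2 CPM in H1299 with DMSO and 69.6, 74.4 and 90.5 CPM with SAHA, all higher (log2 fold change 0.46 ± 0.12, adjusted p = 0.00806). In H1703 it was at 30.4, 34.4 and 26.9 CPM with DMSO and 38.4, 46.3 and 29.9 CPM with SAHA, with overlapping groups (0.34 ± 0.16, adjusted p = 0.0935; 0.33, adjusted p = 0.0268 with the replicate number as a block). The enzymes of the system did not all move alike. UBA7, the E1 enzyme that activates ISG15, was too low to test in H1299 at 0.967, 0.296 and 0.566 CPM with DMSO and 0.119, 0.381 and 0.117 CPM with SAHA. In H1703 it fell from 5.87, 6.13 and 5.57 CPM to 1.20, 1.05 and 1.25 CPM (-2.31 ± 0.20).

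HERC5, the main human E3 ligase for ISG15, was at 38.1, 35.6 and 35.1 CPM in H1299 with DMSO and 43.7, 31.1 and 36.4 CPM with SAHA (adjusted p = 0.8798). In H1703 it rose from 19.9, 18.7 and 19.3 CPM to 26.2, 23.8 and 29.97 CPM (0.49 ± 0.11). Its neighbour HERC6 (chr4:88378739-88443111, beside HERC5 at chr4:88457117-88506163) was at 13.7 ± 0.48 and 11.4 ± 2.3 CPM in H1299 and at 22.0 ± 3.7 and 17.1 ± 0.98 CPM in H1703, with adjusted p of 0.102 and 0.0508. USP18 encodes the protease that removes ISG15 and that also restrains the type I receptor. It fell from 10.8, 12.9 and 10.4 CPM to 6.09, 4.51 and 6.32 CPM in H1299 (-1.06 ± 0.17) and from 18.5, 16.7 and 18.2 CPM to 2.80, 3.72 and 3.68 CPM in H1703 (-2.37 ± 0.15). The groups did not overlap in either line.

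The OAS proteins make 2′-5′ oligoadenylate, which activates RNase L to cleave RNA, and their genes OAS1, OAS3 and OAS2 stand side by side at chr12:112906777-113011723. OAS1 had 0, 0 and 2 counts in the H1299 DMSO libraries (0, 0 and 0.113 CPM) and 1.79, 2.67 and 1.64 CPM with SAHA, 100 counts in all. The count ratio was 51.6, with a 95% counting interval from 13.9 to 432 that covers counting error only. In H1703 OAS1 fell from 39.1, 38.3 and 33.7 CPM to 14.6, 18.7 and 17.9 CPM (-1.10 ± 0.12, adjusted p = 3.44e-05). OAS1 thus rose from near 0 in H1299 and fell in H1703, where it stayed above every H1299 library. OAS2 was too low to test in H1299, at 0.0604, 0.236 and 0.226 CPM with DMSO and 0.478, 0.445 and 0.527 CPM with SAHA. In H1703 it fell from 3.96, 4.20 and 4.54 CPM to 1.27, 0.407 and 0.789 CPM (-2.36 ± 0.34).

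OAS3, the largest of the family, fell in both lines. Its level went from 45.0, 42.1 and 40.6 CPM to 18.3, 23.1 and 21.6 CPM in H1299 and from 167, 187 and 173 CPM to 68.8, 65.9 and 70.6 CPM in H1703, log2 fold changes of -1.08 ± 0.11 and -1.34 ± 0.08. OASL, a catalytically inactive relative on the same chromosome (chr12:121019111-121039242) that enhances RIG-I signalling, rose in both. It went from 2.72, 2.78 and 3.11 CPM to 7.65, 8.57 and 8.14 CPM in H1299 (1.44 ± 0.16) and from 5.74, 6.24 and 4.74 CPM to 35.5, 33.8 and 37.9 CPM in H1703 (2.69 ± 0.13). EIF2AK2 encodes PKR, the kinase that halts translation on double-stranded RNA. It fell from 99.2, 96.3 and 94.9 CPM to 43.3, 40.8 and 37.1 CPM in H1299 (-1.31 ± 0.09) and from 122, 127 and 126 CPM to 57.2, 54.0 and 61.3 CPM in H1703 (-1.10 ± 0.08). The EIF2AK2 groups were far apart in both lines. ISG20, an RNA exonuclease, was at 2.75 ± 0.45 and 2.56 ± 0.32 CPM in H1299 and 10.6 ± 2.5 and 7.76 ± 1.2 CPM in H1703, with adjusted p of 0.548 and 0.0793.

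The IFIT genes encode proteins that bind viral RNA 5′ ends and stop its translation, and they lie together at chr10:89283694-89421001. IFIT2 fell from 14.8, 13.4 and 12.9 CPM to 3.05, 2.03 and 2.23 CPM in H1299 (-2.54 ± 0.18) and from 10.8, 9.92 and 8.66 CPM to 3.20, 3.31 and 2.63 CPM in H1703 (-1.66 ± 0.17). IFIT3 fell from 18.6, 16.7 and 15.6 CPM to 4.78, 2.54 and 3.69 CPM in H1299 (-2.26 ± 0.21) and from 21.3, 20.5 and 21.4 CPM to 6.99, 6.97 and 5.52 CPM in H1703 (-1.68 ± 0.13). IFIT5 fell by 0.87 ± 0.13 and 0.86 ± 0.11 on the log2 scale, from 21.1 ± 2.7 to 11.97 ± 0.65 CPM and from 42.3 ± 2.6 to 23.1 ± 2.3 CPM. In all 3 genes every SAHA library lay below every DMSO library. IFIT1, between IFIT3 and IFIT5 on the chromosome, was not called lower in either line. Its level was 17.3, 16.9 and 16.5 CPM in H1299 with DMSO and 16.4, 16.2 and 16.9 CPM with SAHA (-0.09 ± 0.10, adjusted p = 0.462). In H1703 it was 19.8, 25.3 and 18.8 CPM with DMSO and 25.2, 28.3 and 27.5 CPM with SAHA, with overlapping groups and a small rise (0.36 ± 0.13, adjusted p = 0.0351). That rise was lost under scaling by library totals (adjusted p = 0.102), with DESeq2 (0.0643) and without DMSO library 1 (0.121), DMSO library 3 (0.140), SAHA library 2 (0.0933) or SAHA library 3 (0.0740). IFIT1, IFIT2 and IFIT3 lie inside the annotated span of LIPA, which rose by 1.296 ± 0.074 and 2.502 ± 0.104 and had 56514 counts over all libraries against 3982, 1431 and 2355. The sources used here do not say how such reads were assigned, so these 3 values are uncertain.

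Among the membrane restriction factors BST2 rose in both lines, and the IFITM genes that were tested fell. BST2 encodes tetherin, which holds budding virus at the cell surface. It was at 0.0604, 0.177 and 0.226 CPM in H1299 with DMSO and 5.74, 4.76 and 5.74 CPM with SAHA, a log2 fold change of 5.00 ± 0.34 (adjusted p = 2.69e-06). The H1703 libraries had 1.34, 0.583 and 0.825 CPM with DMSO and 35.7, 41.5 and 31.7 CPM with SAHA, a log2 fold change of 5.32 ± 0.24 (adjusted p = 1.27e-07). The groups were far apart in each line, and the difference between the lines' effects did not pass the test (0.26 ± 0.69, adjusted p = 0.825). On a length-adjusted scale, BST2 moved in H1703 from 0.561 to 20.9 FPKM (fragments per kilobase scaled to the library total; the authors' values, group means), second among the members with SAHA after IFI6.

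The IFITM proteins block the fusion of incoming virus with cell membranes. IFITM2 fell from 15.1, 18.3 and 14.1 CPM to 6.87, 6.80 and 7.96 CPM in H1299 (-1.19 ± 0.15) and from 56.4, 52.9 and 52.9 CPM to 14.5, 15.5 and 13.1 CPM in H1703 (-1.89 ± 0.10). IFITM3 fell from 68.1, 76.3 and 64.6 CPM to 38.7, 43.7 and 37.1 CPM in H1299 (-0.86 ± 0.10) and from 59.4, 35.2 and 52.7 CPM to 14.2, 16.6 and 12.9 CPM in H1703 (-1.73 ± 0.20). The groups of both genes stood apart in both lines. IFITM1 was too low to test in H1299, at 0.121, 0.118 and 0 CPM with DMSO and 0.418, 0.572 and 0.351 CPM with SAHA, and fell in H1703 from 1.91, 1.81 and 1.44 CPM to 0.999, 0.349 and 0.394 CPM (-1.56 ± 0.41). The annotated span of IFITM1 (chr11:313506-315272) lies wholly within that of IFITM2 (chr11:307631-315272), and the family's coding sequences are close copies. Counts of the 3 genes are therefore uncertain, IFITM1 most of all.

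**Figure D3:**
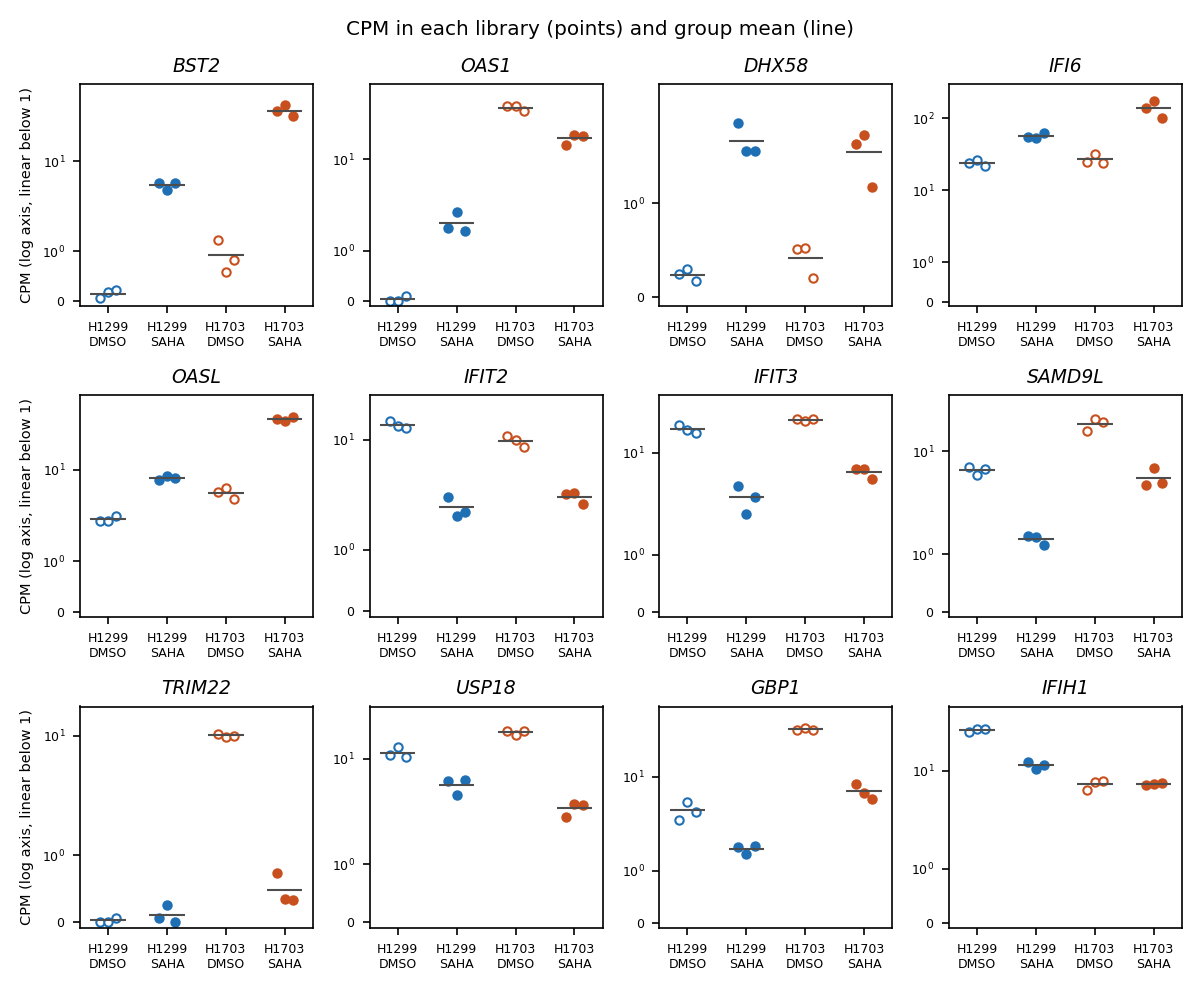
Level in each library (points) and group mean (line) of 12 interferon-stimulated genes, in CPM on a log axis that is linear below 1; open points are DMSO and filled points SAHA. BST2, DHX58, IFI6 and OASL are higher with SAHA in both lines, OAS1 is higher in H1299 and lower in H1703, and IFIH1 is lower with SAHA in H1299 while the H1703 groups overlap.

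MX1 and MX2 encode dynamin-like GTPases that trap viral nucleoprotein complexes and lie side by side at chr21:41361943-41459214. In H1299 both were near 0, MX1 at 0.181, 0 and 0.396 CPM with DMSO and 0.358, 0.191 and 0.703 CPM with SAHA, and were not tested. MX1 fell in H1703 from 13.2, 16.2 and 11.2 CPM to 3.93, 5.40 and 3.94 CPM (-1.59 ± 0.19), with the groups apart. MX2 had no count in any H1299 DMSO library and at most 0.127 CPM with SAHA. MX2 in H1703 was at 4.98, 5.37 and 6.74 CPM with DMSO and 4.73, 4.88 and 6.11 CPM with SAHA, overlapping groups that did not pass the test (-0.10 ± 0.19, adjusted p = 0.651).

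The guanylate-binding proteins, GTPases best known as targets of interferon gamma that attack vacuoles of intracellular pathogens, went different ways. GBP1 fell from 3.45, 5.44 and 4.24 CPM to 1.79, 1.52 and 1.82 CPM in H1299 (-1.40 ± 0.24) and from 31.6, 32.7 and 31.4 CPM to 8.26, 6.74 and 5.85 CPM in H1703 (-2.18 ± 0.14). Its neighbour GBP2 (chr1:89106132-89150456, beside GBP1 at chr1:89052319-89065360) was at 2.48, 2.36 and 2.77 CPM in H1299 with DMSO and 2.87, 2.86 and 2.58 CPM with SAHA (adjusted p = 0.780). In H1703 GBP2 rose from 29.9, 27.2 and 28.7 CPM to 47.0, 46.0 and 44.4 CPM (0.70 ± 0.09). So the H1703 groups of these neighbours were apart in opposite directions.

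Among the other effectors, IFI6, a small protein of the endoplasmic reticulum and mitochondria that limits flavivirus replication, rose in both lines. It went from 23.9, 26.0 and 21.8 CPM to 55.0, 52.8 and 61.8 CPM in H1299 (1.19 ± 0.11) and from 24.4, 31.8 and 24.3 CPM to 137, 173 and 102 CPM in H1703 (2.37 ± 0.22). With SAHA it was the member with the highest mean length-adjusted level in H1703 (60.1 FPKM) and second to ISG15 in H1299 (30.3 against 41.2 FPKM). TRIM22, an E3 ligase of the tripartite motif family that represses viral transcription, fell in H1703 from 10.3, 9.80 and 10.0 CPM to 0.733, 0.349 and 0.329 CPM (-4.39 ± 0.26), the largest fall of the list. TRIM22 had 1 count in all H1299 DMSO libraries together and 5 with SAHA. It shares its span with TRIM5, which fell in H1703 by 1.29 ± 0.13 on the log2 scale and was not called in H1299 (-0.14 ± 0.17).

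SAMD9L and SAMD9 are neighbouring growth-restraining antiviral genes at chr7:93099513-93148369. SAMD9L fell from 7.07, 5.91 and 6.73 CPM to 1.49, 1.46 and 1.23 CPM in H1299 (-2.29 ± 0.19) and from 15.6, 20.4 and 19.2 CPM to 4.73, 6.92 and 4.86 CPM in H1703 (-1.72 ± 0.18). SAMD9 fell from 30.5, 32.0 and 38.5 CPM to 24.0, 14.5 and 20.7 CPM in H1299 (-0.83 ± 0.18). In H1703 SAMD9 was at 32.6, 40.0 and 37.3 CPM with DMSO and 33.9, 38.5 and 35.6 CPM with SAHA, with overlapping groups (-0.01 ± 0.11, adjusted p = 0.952).

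IFI16, a nuclear sensor of viral DNA, was at 4.11, 4.43 and 4.02 CPM in H1299 with DMSO and 6.87, 3.81 and 5.68 CPM with SAHA, overlapping groups (adjusted p = 0.227; 0.52, adjusted p = 0.0404 without SAHA library 2). In H1703 IFI16 fell from 26.9, 28.1 and 27.4 CPM to 11.8, 16.3 and 12.4 CPM (-1.01 ± 0.14). IFI35 fell from 16.97 ± 0.73 to 11.5 ± 1.3 CPM in H1299 (-0.62 ± 0.12) and from 56.7 ± 3.5 to 22.7 ± 6.0 CPM in H1703 (-1.30 ± 0.18). DTX3L and PARP9 encode an E3 ligase and a macrodomain protein that act as a complex, and their genes overlap by 340 bases on chromosome 3. DTX3L fell by 0.89 ± 0.10 and 0.50 ± 0.10 on the log2 scale and PARP9 by 0.45 ± 0.12 and 0.27 ± 0.09. The PARP9 call in H1703 was lost without DMSO library 2 (-0.26, adjusted p = 0.0646).

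The remaining effectors were low or did not pass the test. IFI44L fell in H1703 from 2.04, 3.73 and 0.894 CPM to 0.266, 0.755 and 0.460 CPM (-2.13 ± 0.58, adjusted p = 0.0108) and had at most 0.254 CPM in H1299. Its neighbour IFI44 was at 4.31 ± 0.63 and 3.87 ± 0.73 CPM in H1299 and 7.02 ± 1.4 and 6.34 ± 0.62 CPM in H1703, called in neither. IFI27, a mitochondrial protein often used as a blood marker of interferon, was at 0.896 ± 0.24 and 1.31 ± 0.32 CPM in H1299 and 1.63 ± 0.47 and 1.02 ± 0.18 CPM in H1703, also uncalled. RSAD2, which encodes viperin, an enzyme that makes a chain-terminating nucleotide, stayed at or below 0.814 CPM in every library. XAF1, a promoter of apoptosis, had 9 counts in H1703 with DMSO and none in the other 3 groups, where 3 counts over a group is the limit that a count of 0 allows.

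Under DMSO, H1703 carried more of the programme than H1299. Of 41 tested members, 31 were higher in H1703 and 5 lower, 75.6% and 12.2%. Of all 19105 genes tested in that comparison 66.5% were called, 34.3% higher and 32.2% lower. At 2-fold or more, 22 members were higher and 1 lower, beside 20.9% and 16.5% of all genes. UBA7, OAS2, IFITM1, MX1, MX2, IFI44L and TRIM22 were too low to test in H1299 alone and entered this comparison through their H1703 counts. Their higher calls thus follow in part from the filter, and they are included in the counts of this paragraph. The median log2 difference, H1703 minus H1299, was 1.36 beside 0.00 over all genes. Setting MX2 at the ratio given next left the median at 1.36 and could not move it, since MX2 stays above the median. MX2 went from no count in H1299 to 268 in H1703, a ratio of 96.5 when 3 counts over the group stand for the count of 0. TRIM22 had 1 count in H1299 and 476 in H1703, a ratio of 514 with a 95% counting interval from 91.8 to 20300. OAS1 had 2 against 1759 counts, a ratio of 950 (263 to 7850). MX1 (6.06 ± 0.48), IFI44L (4.72 ± 0.88), OAS2 (4.53 ± 0.43), IFITM1 (4.33 ± 0.60), GBP2 (3.49 ± 0.12) and UBA7 (3.25 ± 0.35) were also among the higher members, with every H1703 library above every H1299 library. All 6 OAS, PKR and RNA decay genes and all 4 GTPase genes were higher in H1703, as were 9 of the 11 tested other effectors, though EIF2AK2 did not pass under scaling by library totals.

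The 5 members lower in H1703 were IFIH1 (-1.84 ± 0.12), HERC5 (-0.91 ± 0.13), ISG15 (-0.84 ± 0.16), IFITM3 (-0.50 ± 0.16) and IFIT2 (-0.48 ± 0.16). For all 5, every DMSO library of H1703 lay below every DMSO library of H1299. These 5 and the higher members above were picked by their calls, so such separation is no further support. The share of all genes so separated was not computed. The IFIT2 call was lost without H1299 library 1 (-0.43, adjusted p = 0.0610) or H1703 library 3 (-0.40, adjusted p = 0.0725). The IFITM3 call was lost without library 2 of H1299 (-0.43, adjusted p = 0.0502) or of H1703 (-0.31, adjusted p = 0.0501) and in a fit of the 6 DMSO libraries alone (-0.51, adjusted p = 0.0527). IRF7, IFIT3, DHX58, IFI6 and SAMD9 did not pass the test between lines. Of the higher calls, those of STAT2 (0.19, adjusted p = 0.104), EIF2AK2 (0.18, adjusted p = 0.0775), IFIT1 (0.14, adjusted p = 0.302) and IFI27 (0.66, adjusted p = 0.0953) were lost under scaling by library totals, which moved the median of all genes to -0.17. IFIT1 was also lost without H1299 library 2 (adjusted p = 0.0527) or 3 (0.0646) or H1703 library 2 (0.149). IFI27 was also lost without H1299 library 1 (0.0753) or 2 (0.130) or H1703 library 2 (0.113) or 3 (0.116), with DESeq2 (0.0954) and with no low-count filter (0.0701).

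On the length-adjusted scale the order of the most abundant members differed between the lines under DMSO. In H1299 IFITM3 (35.2 FPKM, group mean), ISG15 (28.5) and IFI6 (12.7) led, followed by EIF2AK2 (7.36) and IFIT3 (6.95). In H1703 IFITM3 (21.8), IFITM2 (17.1), OAS3 (14.7), ISG15 (13.95) and IFI35 (13.1) led. The last 3 of these neighbours lie within a range of 14.7 to 13.1 and were not tested against each other.

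**Figure D4:**
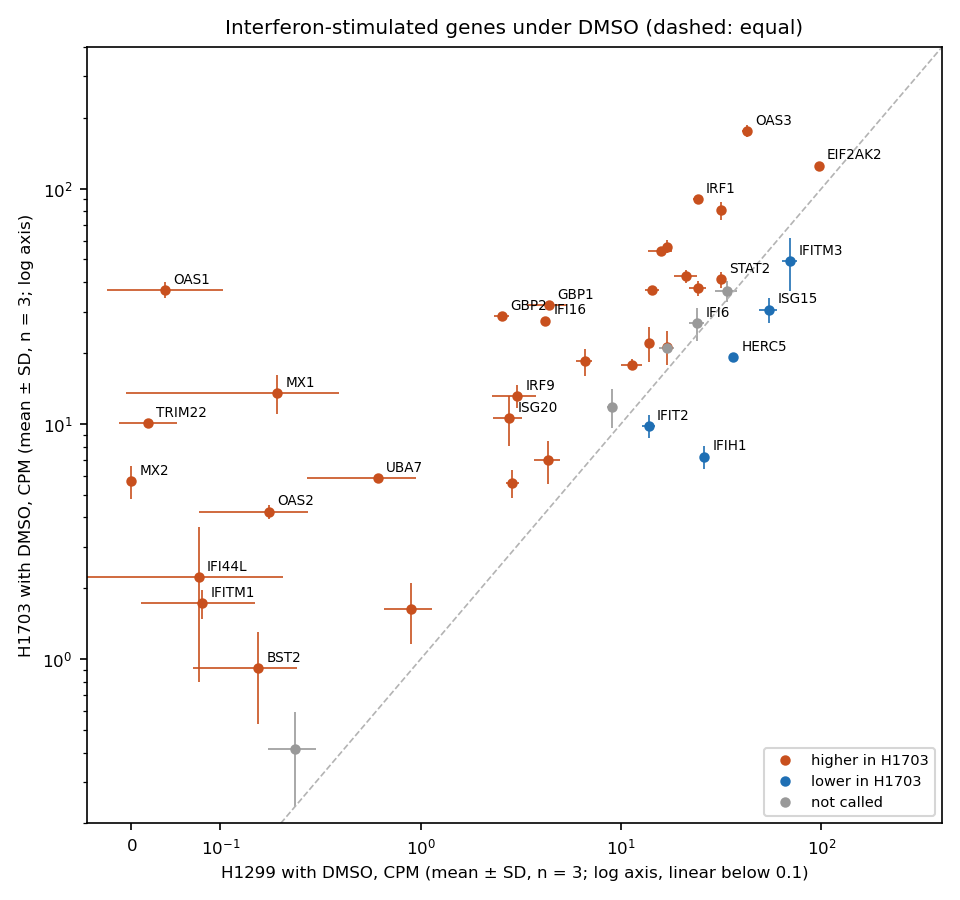
Mean level under DMSO in H1703 (vertical) against H1299 (horizontal), in CPM on log axes (the horizontal one linear near 0), with SD over 3 libraries; the dashed line marks equal levels. Most members lie above the line (31 higher in H1703, orange), 5 lie below it (blue), and grey points did not pass the test.

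Whether SAHA acted differently in the lines was tested as the difference of the log2 fold changes, H1703 minus H1299, which draws on the same DMSO libraries as the comparisons above. Of 41 tested members, 6 had a higher and 14 a lower value in H1703, 14.6% and 34.1%. Of all genes 34.9% were called, 13.7% higher and 21.2% lower. The median was -0.23, beside -0.09 over all genes. With RLE size factors, an alternative to the TMM scaling used here, the split was 10 higher and 12 lower. All genes shifted as well, to 3033 higher and 3646 lower from 2623 and 4049, with a median of -0.02. Because H1703 starts from higher levels under DMSO and the comparisons share those libraries, the values are set side by side and not correlated.

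The higher values belonged to IFIH1 (1.21 ± 0.17), OASL (1.18 ± 0.19), IFI6 (1.11 ± 0.24), IFIT2 (0.81 ± 0.25), SAMD9 (0.75 ± 0.22) and GBP2 (0.56 ± 0.16). IFIH1 and SAMD9 fell in H1299 and did not pass the test in H1703, OASL and IFI6 rose in both and by more in H1703, IFIT2 fell by less, and GBP2 rose in H1703. The IFIT2 value lost its call, at adjusted p from 0.0513 to 0.0568, without H1299 DMSO library 1, H1299 SAHA library 2 or 3, H1703 DMSO library 3 or H1703 SAHA library 2. The GBP2 value lost it without H1299 DMSO library 3 (0.49, adjusted p = 0.0619) and with no filter on low counts (adjusted p = 0.0525).

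Of the lower values, OAS1 (-6.56 ± 0.53), TRIM22 (-6.41 ± 1.35), IFITM1 (-3.97 ± 0.84), OAS2 (-3.80 ± 0.64), MX2 (-3.65 ± 1.32) and MX1 (-2.69 ± 0.76) belonged to genes at or near 0 in H1299 with DMSO, so their size depends on the handling of small counts. All of these but OAS1 were too low to test in H1299 alone and passed the count filter through the H1703 libraries. TRIM22 lost its call without H1299 SAHA library 2 (-4.87, adjusted p = 0.0994) and MX1 without H1299 SAHA library 3 (-2.10, adjusted p = 0.0850). MX2 had an adjusted p of 0.04997, and of 0.0717 with the replicate number as a block. MX2 passed in 1 of 12 fits that each left out 1 library (adjusted p from 0.0531 to 0.120 in the other 11), and it was lost with RLE factors (0.0535), DESeq2 (0.107) and no low-count filter (0.0809). Genes with measurable levels in both lines followed. These were IFI16 (-1.41 ± 0.26), USP18 (-1.38 ± 0.23), IRF9 (-1.13 ± 0.28), IFITM3 (-0.95 ± 0.23), GBP1 (-0.85 ± 0.26), IFITM2 (-0.78 ± 0.17), IFI35 (-0.76 ± 0.22) and STAT2 (-0.39 ± 0.14). USP18, IFITM2, IFITM3, GBP1 and IFI35 fell in both lines and by more in H1703. GBP1 lost its call without H1299 SAHA library 3 (-0.80, adjusted p = 0.0517). STAT2 (adjusted p = 0.0382) lost its call with RLE factors (0.0827), DESeq2 (0.0967) and no filter (0.0796), and without any 1 of the 3 H1299 DMSO libraries, H1299 SAHA library 2, H1703 DMSO library 2 or 3, or H1703 SAHA library 1 or 3 (adjusted p from 0.0629 to 0.101).

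**Figure D5:**
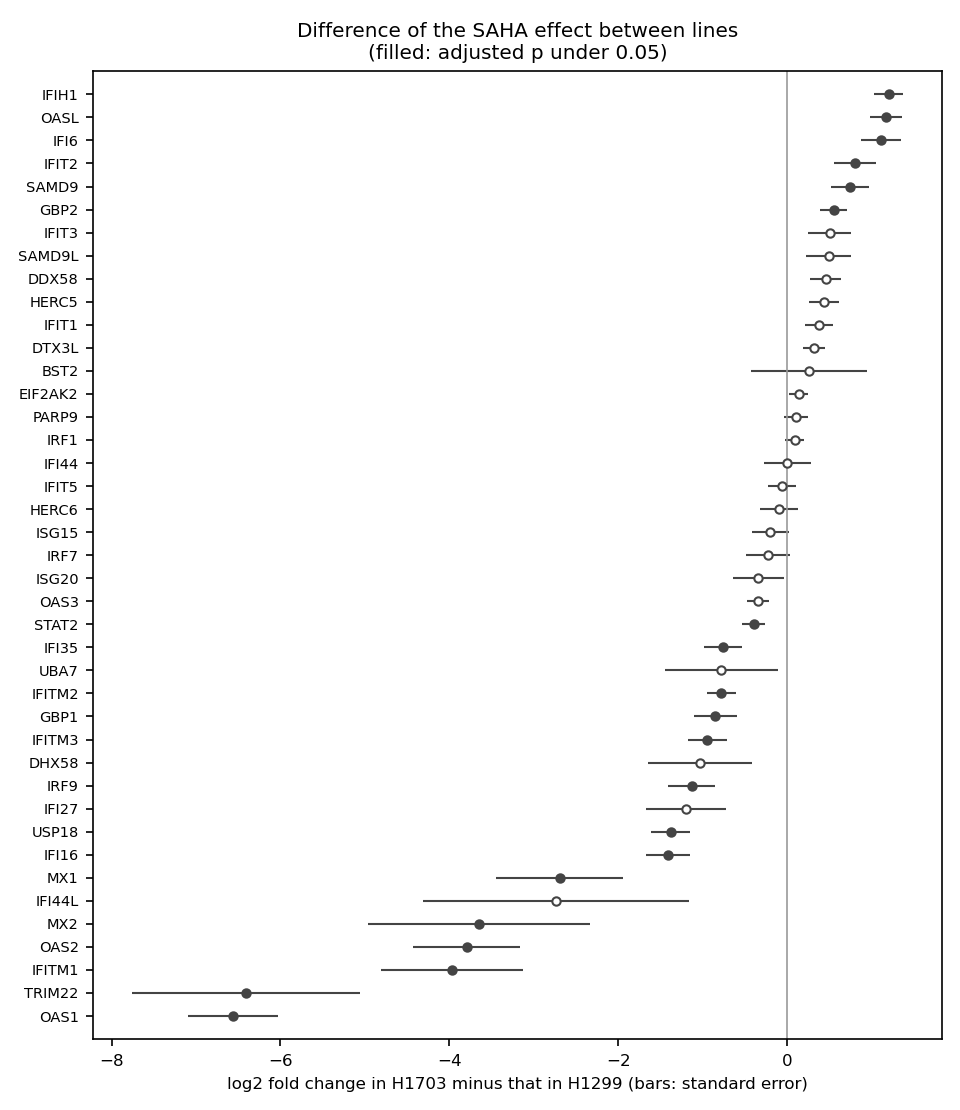
Difference of the SAHA log2 fold change, H1703 minus H1299, for the 41 tested members, with standard errors; filled points passed an adjusted p of 0.05. The 6 filled points right of 0 include IFIH1 and OASL, and the most negative are OAS1 and TRIM22, which were near 0 in H1299 with DMSO.

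The genes above and below these in the pathway were taken from 6 lists, whose counts stand beside the shares of all genes given above: 33.3% rose and 30.4% fell in H1299, and 34.7% rose and 32.6% fell in H1703. Of 21 interferon genes, none was tested in H1299 and only IFNE in H1703, where it did not pass (-0.80 ± 0.69, adjusted p = 0.333). IFNB1 had no count in H1299, 1 count in H1703 with DMSO and 4 with SAHA, a ratio of 3.99 (counting interval 0.395 to 197). IFNL1 had 4 counts in H1299 with SAHA and none with DMSO, and 3 counts in H1703 with SAHA. With 3 counts in place of the 0, the H1299 ratio was 1.38. That ratio leaves out the counting error of the 4 counts, so a rise cannot be told from it. IFNB1 and IFNL1 were thus at or near the floor of the counts in all 4 groups.

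Of 11 receptor, JAK and STAT genes, all tested, 4 rose and 4 fell in H1299 and 5 rose and 3 fell in H1703, with medians of 0.32 and 0.05. The 72.7% called in each line is near the 63.8% and 67.4% of all genes. IFNGR1, the ligand-binding chain of the interferon gamma receptor, rose by 1.19 ± 0.09 and 1.03 ± 0.07. JAK2, a kinase of that receptor, fell by 0.97 ± 0.11 and 1.64 ± 0.11. The chains of the type I receptor moved apart: IFNAR1 fell in H1299 (-0.41 ± 0.10) and rose in H1703 (0.41 ± 0.09), while IFNAR2 was not called in H1299 (0.09 ± 0.13) and fell in H1703 (-0.81 ± 0.13). Both differed between lines (0.75 ± 0.13 and -0.97 ± 0.19).

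Of 17 nucleic acid sensing genes, 15 were tested in each line; 4 rose and 7 fell in H1299 and 3 rose and 7 fell in H1703. That is 73.3% and 66.7% called, again near the shares of all genes. CGAS, the sensor of cytosolic DNA, fell from 55.0 ± 2.8 to 18.7 ± 1.9 CPM in H1299 and from 21.5 ± 1.3 to 7.79 ± 0.81 CPM in H1703. TLR3, the endosomal sensor of double-stranded RNA, fell by 2.69 ± 0.27 and 1.17 ± 0.18. IRF3, the factor that sensing activates, was called in neither line (-0.27 ± 0.13 and 0.05 ± 0.10). Of 9 negative regulators, 2 of 8 tested rose and 4 fell in H1299, and 1 of 9 rose and 5 fell in H1703. The phosphatase gene PTPN1 rose by 1.22 ± 0.08 and 1.68 ± 0.07, PTPN11 fell by 1.24 ± 0.09 and 0.23 ± 0.08, and PTPN6 fell by 0.56 ± 0.11 in H1703.

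Of 30 further antiviral effectors, 22 were tested in H1299, where 3 rose and 12 fell (median -0.51), and 25 in H1703, where 5 rose and 13 fell (median -0.38). NMI, an interferon-induced partner of STATs and of IFI35, fell from 41.6 ± 0.60 to 5.54 ± 0.23 CPM and from 29.0 ± 3.0 to 5.28 ± 1.2 CPM. PARP14 fell by 1.71 ± 0.12 and 0.65 ± 0.08, and the cytidine deaminase gene APOBEC3C by 1.61 ± 0.14 and 2.54 ± 0.10. APOBEC3B had no count in H1299 and fell in H1703 from 51.8 ± 1.2 to 5.35 ± 1.0 CPM. Of 11 class I presentation genes, 6 rose and 3 fell in H1299 (54.5% and 27.3%) and 5 rose and 3 fell in H1703 (45.5% and 27.3%). HLA-B rose by 0.64 ± 0.07 in H1299 and 2.90 ± 0.09 in H1703, while the immunoproteasome gene PSMB10 fell by 1.19 ± 0.13 and 2.62 ± 0.23, and TAP2 fell in H1299 (-1.11 ± 0.08) and rose in H1703 (0.38 ± 0.07).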

How the data were processed

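RNA-seq of 12 libraries was analysed from the authors' deposited tables of raw counts per gene and of FPKM values (fragments per kilobase, scaled to the library total), 1 table pair per line. Per the submitters' processing notes, HISAT2 2.1.0 and StringTie 1.3.3b were used with GRCh38, beside FastQC 0.11.9, fastp and edgeR 3.30.3. How reads were counted is not given in these sources, nor is the annotation, and the labels contradict each other on strand, so genes that overlap may share reads. The deposited FPKM followed from the deposited counts, gene lengths and library totals within 1% in 100% of 236676 values checked. They were used only to compare levels between genes and to sum levels over the members. Columns named NC were taken as DMSO, the only other treatment the labels give, and 0 per-sample columns went unused.

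Counts were tested with edgeR 4.0.16 (limma 3.58.1, R 4.3.3): genes passing filterByExpr (minimum count 10, minimum total 15), TMM scaling, robust quasi-likelihood F tests, with p-values adjusted over every tested gene by Benjamini-Hochberg and called at 0.05. All p-values given as adjusted come from this test unless DESeq2 1.42.0 is named. Each line's SAHA effect was fitted within that line. The line difference under DMSO and the difference of SAHA effects were fitted over all 12 libraries. CPM values use TMM factors over all 12 libraries. Counting intervals (95%, exact, conditional on the summed counts) cover counting error only. Ratios with 3 counts over a group in place of a count of 0 leave out the counting error of the other group and any other spread. Replicate libraries of a group differed by more than sampling noise (chi-square divided by its degrees of freedom was at least 10.9). The fits were also run on simulated data in which a small share of genes, all well counted, changed. Those runs do not cover genes near 0 counts, or scaling where most genes change.

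The labels give the replicate number under a batch tag, which may pair the libraries, but the main tests left the number out. Within a line, deviations of same-numbered DMSO and SAHA libraries correlated at -0.031 to 0.0333 across genes. The fit with the replicate number as a block was an alternative, beside RLE size factors, library totals, DESeq2, no low-count filter, other choices of libraries in the fit, and leaving out each library.

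The members and gene lists were chosen with earlier results of these data known. Every member is described. Of the other pathway genes, a few fixed ones are named. The others named with the lists had the smallest adjusted p of their list in a SAHA comparison, among genes above a floor on level. They need not have the largest change. Some genes of these lists are not reported here.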

Additional observations from a re-analysis of the deposited data

Results flagged for a closer look

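For 20 of 41 tested members (48.8%) the SAHA effect differed between lines by the test of the difference, beside 34.9% of all genes. Values are log2 fold changes in H1703 minus those in H1299, from edgeR's quasi-likelihood test. Positive differences were found for the RNA sensor gene IFIH1 (1.21), OASL (1.18), IFI6 (1.11), IFIT2 (0.81), SAMD9 (0.75) and GBP2 (0.56). Among genes at or near 0 in H1299 with DMSO, negative differences were found for OAS1 (-6.56), TRIM22 (-6.41), IFITM1 (-3.97), OAS2 (-3.80), MX2 (-3.65) and MX1 (-2.69). Among genes measurable in both lines they were found for IFI16 (-1.41), USP18 (-1.38), IRF9 (-1.13), IFITM3 (-0.95), GBP1 (-0.85), IFITM2 (-0.78), IFI35 (-0.76) and STAT2 (-0.39). Of these calls, that of STAT2 was kept in 6 of 17 alternative fits and that of MX2 in 2 of 17. TRIM22, IFITM1, OAS2, MX2 and MX1 were too low to test in H1299 alone and passed the count filter through H1703. OAS1 is the member that passed the test within both lines in opposite directions.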

How the results depend on the processing

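Leaving out 1 library at a time gave 8 to 9 members higher and 17 to 18 lower in H1299, 7 to 9 and 23 to 24 in H1703, 29 to 32 and 4 to 5 between lines under DMSO, and 5 to 9 and 11 to 15 for the difference of effects. With RLE size factors the count of members with a higher difference of effects went from 6 to 10, the earlier 6 included. That of all genes went from 2623 to 3033. Every member called in H1299 kept its call under all alternatives run. With the replicate number as a block, ISG15 gained a call in H1703 (0.33) and MX2 lost that for the difference of effects (-3.65), and no other member's call changed. Scaling by library totals alone moved the median of all genes by over 0.1 in 3 comparisons, from 0.018 to -0.087 in H1703 (5399 genes higher and 6345 lower, against 6002 and 5639), to -0.17 between lines (5457 genes higher and 7408 lower, against 6561 and 6151) and to -0.19 for the difference of effects (2089 and 4756, against 2623 and 4049). Under it HERC6 (-0.45) and ISG20 (-0.53) gained calls in H1703.

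Only values that had not passed the test changed sign. With library totals these were HERC5 in H1299 (0.049), IFIH1 in H1703 (-0.073), IFI6 (-0.025) and SAMD9 (-0.076) between lines, and IRF1 (-0.0090) and IFI44 (-0.091) for the difference of effects. HERC5 in H1299 was 0.030 in a fit over all 12 libraries, SAMD9 in H1703 was 0.0083 with RLE factors, and IFIT5 for the difference of effects was 0.013 with RLE factors and 0.017 with DESeq2. Leaving out libraries gave HERC5 -0.16 to 0.083 and IRF9 -0.084 to 0.27 in H1299. In H1703 it gave IFI44 -0.28 to 0.023, IFIH1 -0.071 to 0.070, MX2 -0.23 to 0.022 and SAMD9 -0.099 to 0.051. For the difference of effects it gave BST2 -0.11 to 0.64, HERC6 -0.24 to 0.056, IFI44 -0.13 to 0.16 and IFIT5 -0.15 to 0.031. The cause was not tested. Depth limits the members near 0 counts, chiefly MX1, MX2, TRIM22, IFITM1, IFI44L, RSAD2 and XAF1 in H1299.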

Other observations

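Some other interferon-related genes, chosen after their values were seen, changed from near 0 counts in H1299. GBP5, a guanylate-binding GTPase that promotes inflammasome assembly, had 1 count over the 3 DMSO libraries and 156 over the 3 SAHA libraries, a ratio of 161 with a 95% counting interval from 28.5 to 6400. TRIM34, a tripartite motif gene, had 2 and 96 counts, a ratio of 49.5 (13.3 to 415). Of members of the same families, GBP1 fell there and GBP2 did not pass the test (log2 fold change 0.07). TRIM22 had 1 and 5 counts, a ratio of 5.16 (0.577 to 244).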
